A study of Mus musculus with 6 samples.

Results

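The receptors through which a blood stem cell can sense inflammation were examined in maps of open chromatin from aged and young mice. The set held 10 genes of 21627 protein-coding genes: the receptors Il1r1, Il6ra, Ifnar1, Ifnar2, Ifngr1, Tnfrsf1a, Tnfrsf1b, Tlr2 and Tlr4, and the shared cytokine receptor chain Csf2rb. The genes were chosen by name and function, with earlier results of these data known. Every peak that overlapped one of these genes or the 25 kb on either side was taken, and peaks from different lists sharing 1 bp or more were joined into regions. This gave 344 regions of 882758 in all lists, over 811 kb of windows.

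The data were ATAC-seq peak lists. The assay uses a transposase that inserts sequencing adaptors where DNA is accessible. Long-term haematopoietic stem cells, the marrow cells that sustain blood production, came from C57BL/6 mice labelled aged (3 samples) or young (3 samples). All 6 samples were sorted from bone marrow as cells without lineage markers that carry Kit and Sca1 but neither Flk2 nor Cd34, and all were kept overnight at 3% oxygen in HBSS with 10% FBS. Ages in weeks, sex, and whether each sample was 1 animal or a pool are not given in the sources used here, so the p-values given reflect sample-to-sample spread that may be technical. The titles also carry a number (10000, 2500 and 5000 in aged replicates 1 to 3; below 2500, 2500 and 5000 in young replicates 1 to 3) and another after the letters exp (2, 5 and 3 at both ages). The labels explain neither, and neither entered a test as a covariate. Aged and young lists with the same replicate number thus share an exp number.

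Cytokine receptors of this group sit on the cell surface and pass their signal inward through Janus kinases and STAT factors (the interferon, interleukin-6 and Csf2rb families), or through adaptors that end in NF-kB (the interleukin-1, Toll-like and tumour necrosis factor families). Toll-like receptors respond to microbial products. In blood stem cells such signals are known to drive exit from quiescence and to bias output towards myeloid cells. An open region at a gene start shows accessible DNA there, and is no measure of the receptor's RNA or protein.

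The lists held 244692, 129137 and 129949 distinct peaks in aged replicates 1 to 3, and 263956, 254869 and 110596 in young replicates 1 to 3. That order of samples is used for all values given in sixes. The read depth behind the lists is unknown, and the authors' lists go down to weak peaks (p of 0.01). Young replicate 2 and aged replicate 3 stood apart: among regions common to the remaining 5 lists, they called 62.3% and 75.6%, against 97.4% to 99.6% in the other 4 lists. Young replicate 2 had only 200 distinct values of −log10 p among its peaks, so many of its ranks are tied. Among marker genes, the stem cell genes Kit, Meis1, Hlf and Mecom had an open promoter in all 6 lists (4 of 9 stem cell markers). None of the 20 markers of T and NK, B, myeloid, erythroid, and endothelial and stromal cells had one, though each list called some of them, from 4 of the 20 in aged replicate 3 to 13 in young replicate 2. Over all protein-coding genes 35% had one in all 6 lists, not far from the 4 of 9 stem cell markers. Aged replicate 3 called 52.0% of all genes and young replicate 2 called 50.2%, so the 13 of 20 lay above the general share of that list. The part of such other cells in the results below was not tested. Among the stem cell markers Slamf1 was called in no list, and of the markers absent by the sort, the Flt3 promoter was called in 4 lists and that of Cd34 in 5.

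Sequence just upstream of the gene start is shown for the members on which the results turn. Ifngr1 and Ifnar1 had the strongest promoters in every list. Both starts that the RefSeq promoter table gives for Il1r1 are shown, of which only the upstream start lay in a region. Tnfrsf1a was the member with a list in which no promoter region was called. Tnfrsf1b was the member whose promoter varied most when young replicate 2 was left out. Each stretch is the 250 bases before the start, read 5′ to 3′ on the gene's strand from the RefSeq promoter table (GRCm38.p6, the assembly that mm10 names), which matched 8 of the 10 members; Tlr4 and Csf2rb are named only. They lie at chr10:19591699-19591948 (plus strand) for Ifngr1, chr16:91484965-91485214 (plus strand) for Ifnar1, chr1:40224830-40225079 (plus strand) and chr1:40266336-40266585 (plus strand) for Il1r1, chr6:125349473-125349722 (plus strand) for Tnfrsf1a and chr4:145246871-145247120 (minus strand) for Tnfrsf1b. The record of Ifnar1 in the RefSeq gene table begins inside the printed stretch. That of Il1r1 begins at chr1 position 40222480, before both printed stretches. Capitals mark matches to any of the motifs searched.
Ifngr1: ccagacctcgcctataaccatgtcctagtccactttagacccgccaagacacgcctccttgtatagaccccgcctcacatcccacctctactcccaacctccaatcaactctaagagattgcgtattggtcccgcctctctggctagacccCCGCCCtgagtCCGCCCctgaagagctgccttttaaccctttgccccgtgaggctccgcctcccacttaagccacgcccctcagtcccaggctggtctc
Ifnar1: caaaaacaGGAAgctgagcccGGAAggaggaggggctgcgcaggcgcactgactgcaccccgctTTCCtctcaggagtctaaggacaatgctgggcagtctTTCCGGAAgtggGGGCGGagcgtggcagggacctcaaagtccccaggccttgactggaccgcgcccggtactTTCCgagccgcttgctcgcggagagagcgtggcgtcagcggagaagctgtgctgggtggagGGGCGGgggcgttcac
Il1r1 upstream start: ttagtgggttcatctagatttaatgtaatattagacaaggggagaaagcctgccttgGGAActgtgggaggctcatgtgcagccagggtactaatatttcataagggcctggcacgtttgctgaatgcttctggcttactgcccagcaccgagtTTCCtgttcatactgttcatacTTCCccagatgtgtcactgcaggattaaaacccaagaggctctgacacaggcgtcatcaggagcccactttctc
Il1r1 downstream start: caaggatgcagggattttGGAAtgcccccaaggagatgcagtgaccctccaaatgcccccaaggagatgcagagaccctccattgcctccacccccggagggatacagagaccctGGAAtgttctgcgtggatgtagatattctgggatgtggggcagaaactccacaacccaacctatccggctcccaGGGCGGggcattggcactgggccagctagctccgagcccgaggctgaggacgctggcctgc
Tnfrsf1a: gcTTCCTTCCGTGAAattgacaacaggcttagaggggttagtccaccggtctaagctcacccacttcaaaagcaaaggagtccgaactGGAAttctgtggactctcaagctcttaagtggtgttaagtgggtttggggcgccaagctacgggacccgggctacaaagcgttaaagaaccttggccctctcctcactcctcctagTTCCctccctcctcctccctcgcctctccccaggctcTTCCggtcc
Tnfrsf1b: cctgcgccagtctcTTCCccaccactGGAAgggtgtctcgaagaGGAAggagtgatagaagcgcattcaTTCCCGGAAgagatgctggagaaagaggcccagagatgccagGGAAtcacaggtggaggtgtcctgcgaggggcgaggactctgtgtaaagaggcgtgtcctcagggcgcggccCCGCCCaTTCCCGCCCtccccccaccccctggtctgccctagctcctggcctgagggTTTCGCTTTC

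The motifs were searched on both strands of these 250 bases, and matches to different motifs may overlap. The ETS core GGAA, the centre of the sites of PU.1 and its relatives, occurred at 8 of the 9 starts of the 8 matched members and in 93.4% of 32851 promoters, a share close to that of the members. Ifngr1 was the start without it. The SP1 box GGGCGG occurred at 5 of 9 starts and in 32.7% of all promoters, with 2 matches each at Ifnar1, Ifngr1, Tlr2 and Tnfrsf1b and 1 at the downstream start of Il1r1. The interferon-gamma element TTCNNNGAA occurred at 3 of 9 starts (Ifnar2, Tnfrsf1a and Tnfrsf1b) and in 7.02% of all promoters, and each of these matches holds an ETS core within it. The interferon-stimulated response element, given by name, occurred at Tnfrsf1b alone, at bases 10 to 1 before the start, and in 2.98% of all promoters. The GATA motif AGATAA occurred at Il6ra alone and in 9.99% of all promoters. No start held the NF-kB motif, given by name, the AP-1 form TGANTCA, the RUNX form TGTGGT, the C/EBP form TTGCGCAA or the long PU.1 form GAGGAAGT, which occur in 0.356%, 6.75%, 14.0%, 0.164% and 2.44% of all promoters. A match is a run of letters and not a measured binding site.

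Base composition differed among the members in the same stretches. Ifnar1 held 19 CpG dinucleotides and Il6ra 18, against a median of 6 over all promoters. Ifnar2, Ifngr1 and Tlr2 held 11 each, Tnfrsf1b 12 and Tnfrsf1a 9. The upstream start of Il1r1 held 3 CpG at 48.4% GC, below the median promoter on both, while its downstream start held 7 CpG at 60.4% GC. The open start of Il1r1 was thus the one with fewer CpG.

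Open promoters were the rule in this group at both ages. A promoter region, here a region within 1 kb of the start, was called in all 6 lists for 9 of the 10 members, and in 5 lists for Tnfrsf1a. Over all protein-coding genes 35% had a promoter region in all 6 lists and 50.4% in at least 5. Some of the members' calls rest on weak peaks. With only peaks at a q-value of 0.05, the lists called 10, 10, 9, 10, 5 and 10 members. With all lists shortened to the same number of peaks they called 10, 10, 10, 10, 5 and 10. If a call had to cover 50% of the region, the mean was 7.67 in aged and 7 in young lists. The share of all genes was not computed in these settings. For Tlr4 and Csf2rb, for which the tables used give no strand, the window was laid around both gene ends; the end at the lower coordinate was in a region called in all 6 lists, and the other end had a region in 1 list. The called promoter regions of the 10 genes were 331 to 1007 bp wide, with a median of 793.5 bp, and the peak summits lay from 180 bp before to 398 bp after the start. To describe strength, each peak was ranked by its −log10 p, the authors' own value, within its list and given as a percentile, so that 99 means stronger than 99% of the peaks of that list. Percentiles of lists of different lengths can show neither a change between ages nor its absence, and were not tested for one.

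The strongest promoters of the group were those of the interferon receptor genes Ifngr1 and Ifnar1. Ifngr1, the ligand-binding chain of the interferon-gamma receptor, lay at percentiles 99.8, 98.9, 99.2, 99.5, 99.1 and 99.4 (region chr10:19591417-19592366). Ifnar1, a chain of the receptor for type I interferons, lay at 99.7, 98.8, 99.5, 99.8, 99.9 and 98.9 (chr16:91484764-91485580). These genes held the first and second place among the members in 6 of 6 lists, young replicate 2 included. Against the promoters of all protein-coding genes, with uncalled promoters counted lowest, Ifnar1 stood above 92.7% to 99.2% of genes and Ifngr1 above 93.0% to 97.6%. Ifnar2, the partner chain of Ifnar1, lay lower at 95.1, 95.1, 96.5, 96.3, 22.3 and 94.1 (chr16:91372592-91373379), with the one low value in young replicate 2.

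At the receptors of interleukin-1 and interleukin-6 the promoters were called in all 6 lists. Il1r1, the signalling receptor for interleukin-1, lay at 99.5, 94.4, 95.8, 97.0, 55.6 and 90.0 (chr1:40224674-40225322), all at its upstream start. Around the downstream start at chr1 position 40266586, 2 regions were called, each in a single list (aged replicate 1 at percentile 60.004 and young replicate 3 at 28.7), and neither covered the start itself. Il6ra, the ligand-binding chain for interleukin-6, lay at 94.0, 95.1, 91.0, 98.3, 53.9 and 94.3 (chr3:89912738-89913563). In both genes the lowest value was that of young replicate 2 and the other values of the ages overlapped.

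With young replicate 2 left out, the tumour necrosis factor receptors were the least even. Tnfrsf1a, the receptor with a death domain, lay at 93.6, 88.0 and 84.3 in the aged lists and at 96.1 and 94.6 in young replicates 1 and 3 (chr6:125349531-125349861), with no call in young replicate 2. The 2 young values lay above the 3 aged values. Tnfrsf1b, the second receptor for the same ligand, lay at 59.8, 89.8, 33.1, 97.3, 61.5 and 88.5 (chr4:145246594-145247061). Its aged values of 59.8 and 33.1 lay below the 61.5 of young replicate 2, while aged replicate 2 lay above that list and above young replicate 3.

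The Toll-like receptors and the shared chain completed the group. Tlr4, the receptor for lipopolysaccharide, lay at 94.8, 93.3, 96.6, 95.6, 73.1 and 93.9 (chr4:66827253-66828259). Tlr2, which binds bacterial lipoproteins with Tlr1 or Tlr6, lay at 88.3, 88.5, 96.0, 93.4, 8.5 and 84.0 (chr3:83841135-83841933). Csf2rb, the signalling chain for GM-CSF, interleukin-3 and interleukin-5, lay at 82.5, 83.6, 88.2, 89.9, 73.1 and 87.3 (chr15:78325660-78326286). The ages overlapped in each of these genes.

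Without young replicate 2, whose ranks are tied, the mean percentile over the other 5 lists gave an order that is a description and joins both ages. Ifngr1 (99.4 ± 0.33, SD, n = 5) and Ifnar1 (99.4 ± 0.46) led and did not differ from each other beyond their spread. Ifnar2 (95.4 ± 0.96), Il1r1 (95.3 ± 3.51), Tlr4 (94.8 ± 1.32) and Il6ra (94.5 ± 2.59) formed a middle group whose neighbours lay within 1 SD of each other. The middle group was not fully apart from the leading pair, as Il1r1 in aged replicate 1 (99.5) lay above the lowest value of that pair (98.8). Tnfrsf1a (91.3 ± 4.99), Tlr2 (90.1 ± 4.74), Csf2rb (86.3 ± 3.12) and Tnfrsf1b (73.7 ± 26.8) followed, with neighbours within the larger SD of each pair. The middle of the group was unremarkable among called promoters: the median percentile of the members' called promoters was 94.4, 93.8, 95.9, 96.6, 61.5 and 94.0, and that of all called promoters was 94.9, 93.1, 94.0, 96.0, 73.1 and 92.2.

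**Figure D1:**
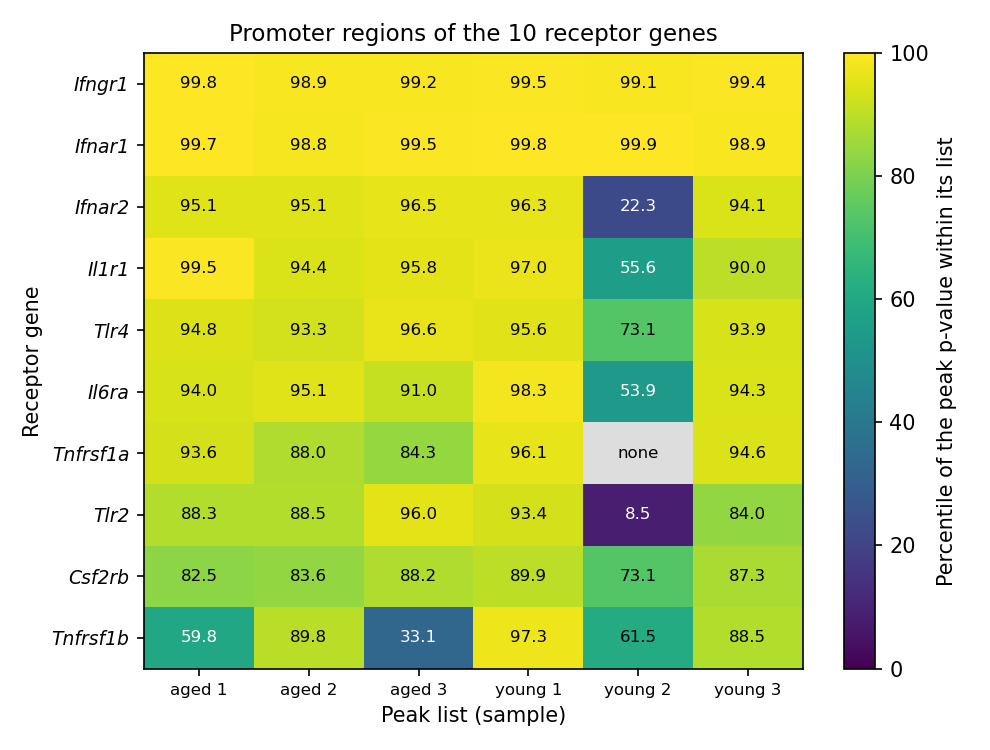
Within-list percentile of the −log10 p of each member's promoter region, for the 10 genes (vertical axis) in the 3 aged and 3 young lists (horizontal axis); the grey cell marks no call. Ifngr1 and Ifnar1 lie at 98.8 or above in all 6 lists, most of the low cells are those of young replicate 2, and the grey cell is Tnfrsf1a in that list.

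Away from the promoters, most regions near these genes were called once and a small set was called everywhere. Of the 344 regions, 240 (69.8%) were called in 1 list only, against 82.9% of all regions within 25 kb of a protein-coding gene. All 6 lists called 21 (6.10%), against 1.61% of regions within 25 kb of such genes and 1.09% of all regions. Setting aside every region at a promoter of any gene left 308, of which 12 (3.90%) were called in all 6 lists, against 0.535% of such regions near all protein-coding genes. Per gene the members had 2.1 regions called in all 6 lists on average (median 2.5), and all protein-coding genes had 0.894 (median 1). These shares are descriptions of a chosen set of genes and were not tested. Regions called in 1 list had a median width of 196 bp and those called in all 6 a median of 726 bp.

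By place, 133 regions lay between genes, 117 in the body of a member, 19 at a member's promoter window, 58 in the body of a neighbouring gene and 17 at a neighbour's start or end. Regions called in all 6 lists were 9 between genes, 3 in member gene bodies and 9 at promoters, and none at neighbours. Exons and introns could not be told apart, since the annotation used gives only gene starts and ends. The 12 widely called distal regions belonged to 6 members: 3 at Tnfrsf1b, 2 each at Ifnar1, Ifnar2, Ifngr1 and Il6ra, and 1 at Tlr2. Il1r1, Tnfrsf1a, Tlr4 and Csf2rb had none.

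The strongest region of the whole group lay past the end of Ifnar1. It was a narrow region of 252 bp at chr16:91534514-91534765, 49.4 kb from the Ifnar1 start, 24116 bp from the gene and 12294 bp from Ifngr2, the second chain of the interferon-gamma receptor. Its strongest peak held rank 361, 5, 34, 233, 1373 and 9 in the 6 lists. Its fold enrichment over background, as the authors deposited it, was 16.1, 36.5, 15.8, 19.02, 4.59 and 36.01, and it was stronger than the Ifnar1 promoter in 5 of 6 lists, young replicate 2 being the exception. The region lies within 25 kb of both Ifnar1 and Ifngr2 and cannot be assigned to either from these data. The promoter of Ifngr2 itself was called in all 6 lists at 60.9, 89.8, 51.4, 97.4, 98.6 and 83.2.

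The other interferon receptor loci also held shared distal regions. A second region past Ifnar1, 37.9 kb from its start (chr16:91522845-91523330), lay at 97.9, 95.6, 88.2, 98.7, 98.6 and 96.5. At Ifnar2 a region 5.7 kb before the start (chr16:91366635-91367475) lay at 95.2, 93.2, 96.7, 96.2, 99.7 and 90.0, above the promoter in 3 of 6 lists. Both stayed high in young replicate 2, unlike the Ifnar2 promoter. A further Ifnar2 region, 17.3 kb before the start (chr16:91355167-91355780), lay at 97.9, 95.2, 94.0, 94.998, 65.3 and 89.4. At Ifngr1 the promoter was the strongest region, and the flanking regions 21.6 kb before and 21.6 kb after the start lay at 95.5, 87.9, 51.4, 95.2, 73.1 and 87.6 (chr10:19569812-19570970) and at 96.6, 89.5, 37.8, 94.7, 42.7 and 88.3 (chr10:19613008-19614003). Both Ifngr1 flanks were lowest in aged replicate 3 and young replicate 2, the lists that called the fewest shared regions.

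Il6ra and Tnfrsf1b had their strongest region inside the gene. A region 40.7 kb into Il6ra, near its far end (chr3:89872203-89872707), lay at 94.98, 96.1, 96.1, 99.2, 99.0 and 97.7, above the promoter in 6 of 6 lists. A region 5.8 kb into Tnfrsf1b (chr4:145240703-145241428) lay at 99.6, 96.3, 82.5, 95.3, 61.5 and 91.6, above the promoter in 4 lists, tied in young replicate 2 and below it in young replicate 1. Tnfrsf1b also had the most widely called regions of any member, 9 of 40 in at least 5 lists. Of its other distal regions in all 6 lists, one 35.7 kb from the start (chr4:145210951-145211484) lay at 62.3, 87.1, 85.2, 95.8, 88.8 and 87.7, and one 46.5 kb away (chr4:145199999-145200812) at 97.5, 93.0, 93.5, 80.0, 57.5 and 90.4. In the former aged replicate 1 was lowest, and in the latter the 3 aged values lay above the 3 young values, which ranks in lists of different length do not make a change.

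At Tlr2 a region 21.5 kb before the start (chr3:83862848-83863425) lay at 96.1, 90.4, 75.8, 89.3, 22.3 and 90.7, above the promoter in 4 of 6 lists. Tlr4 and Csf2rb had no region in at least 5 lists other than the promoter. Next to Csf2rb lies its paralogue Csf2rb2, whose promoter was called in aged replicates 1 and 2 at 91.7 and 85.9 and in young replicate 3 at 81.1. The paralogues are close in sequence, and how reads that match both were handled is not given in the sources used here, so the values of both are uncertain. At Il1r1 and Tnfrsf1a, the regions besides the promoter called in 5 lists (1 and 3) lay in the neighbouring genes Il1rl2, Scnn1a and Plekhg6. Over the whole group, 15 regions were called in exactly 5 lists; the missing list was aged replicate 3 for 6, young replicate 2 for 6, aged replicate 2 for 2 and young replicate 1 for 1.

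**Figure D2:**
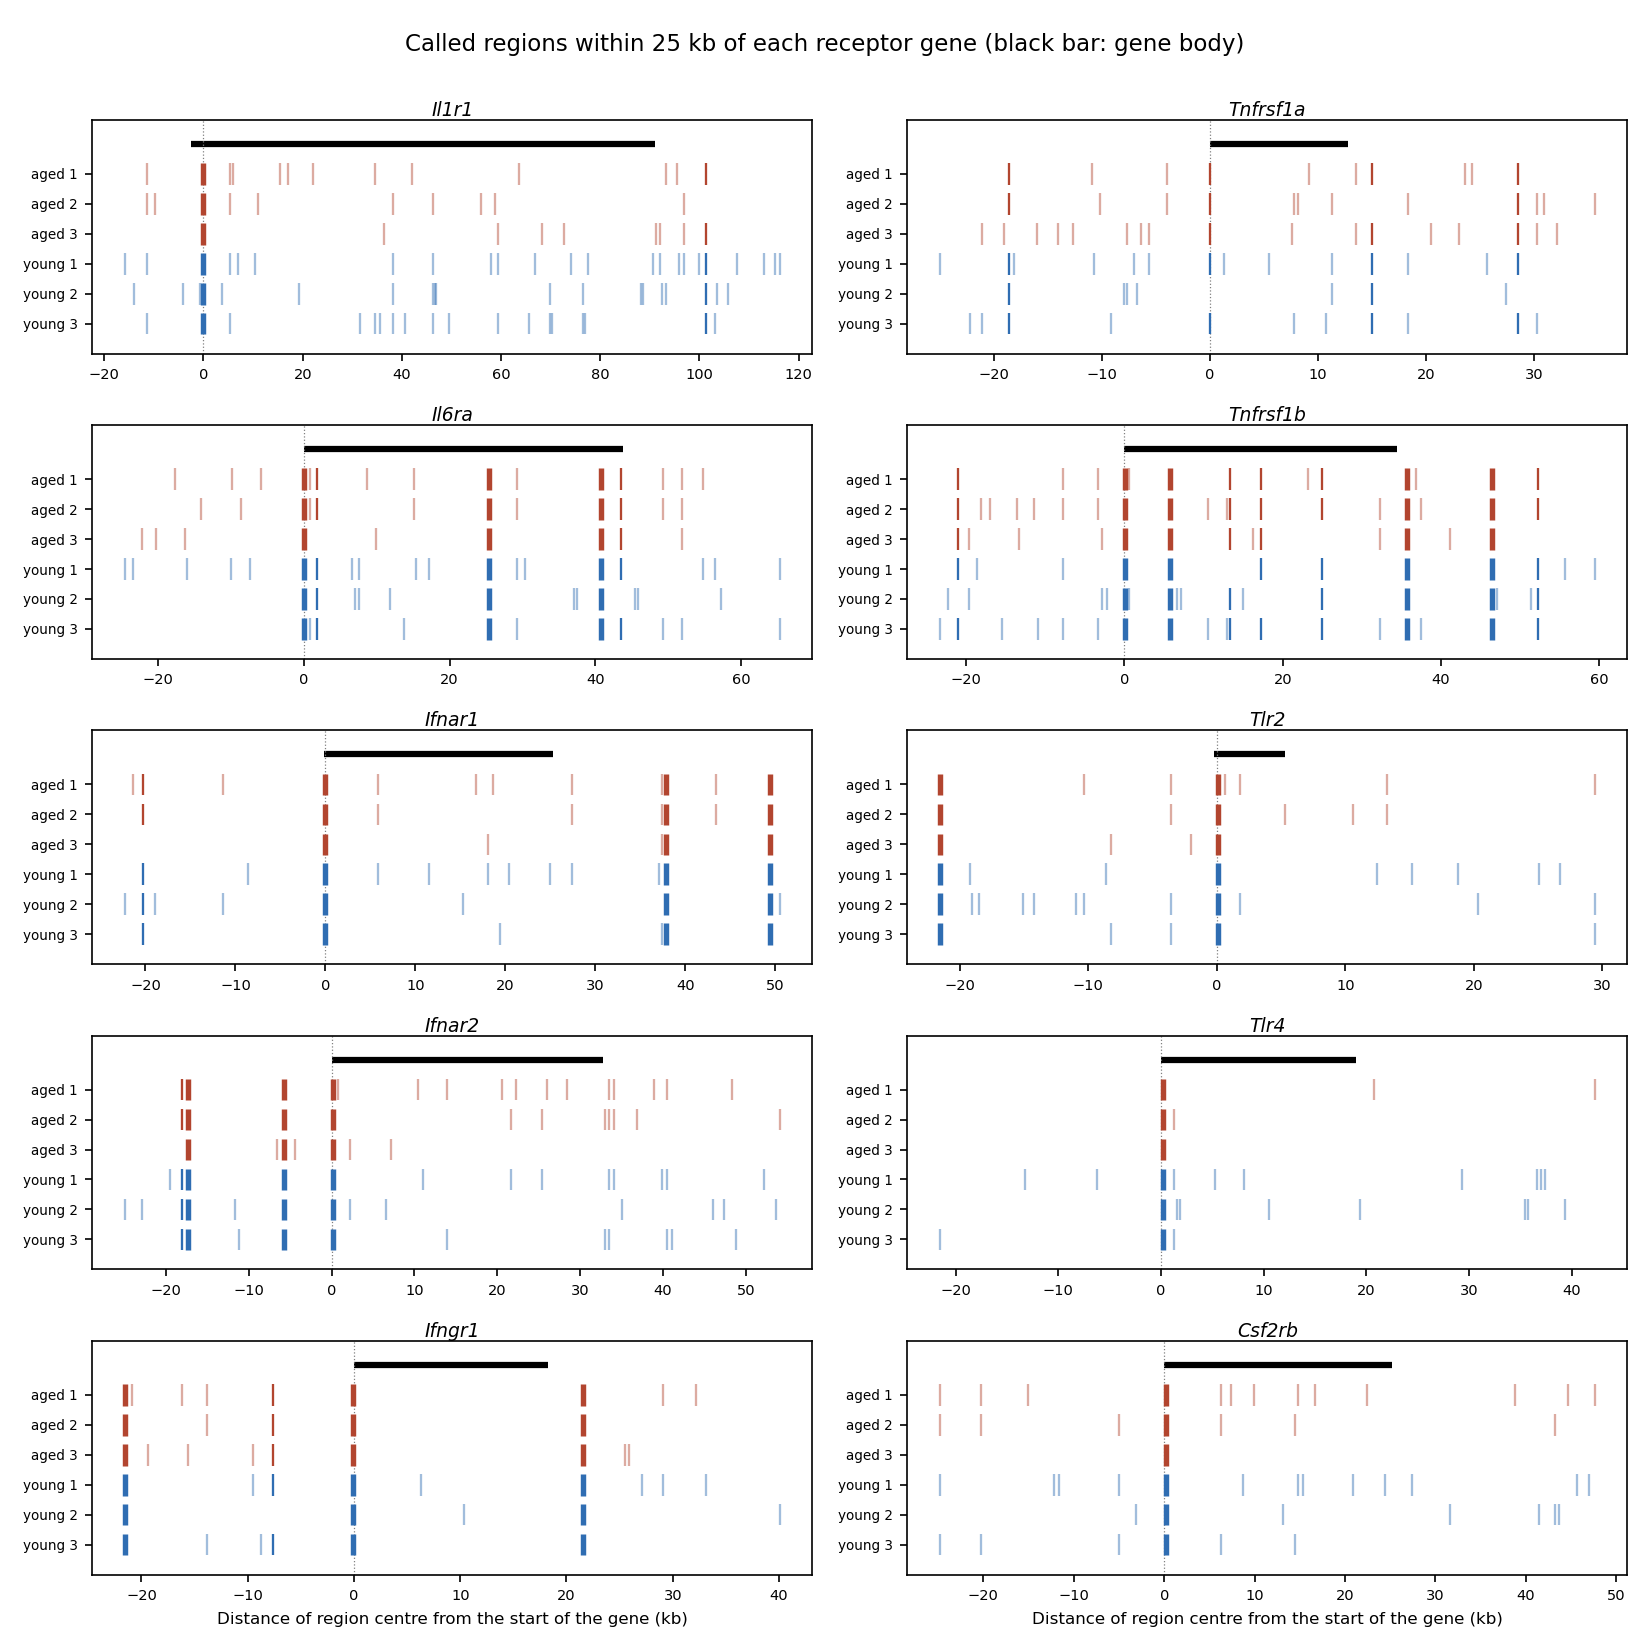
Called regions in each list by distance of their centre from the gene start (kb), with the gene body as a black bar; ticks are red for aged and blue for young lists, thick for regions called in all 6 lists, dark and thin for 5 lists, and pale for fewer. For Tlr4 and Csf2rb the distance is from the gene end at the lower coordinate. The 21 thick columns sit at 9 starts and 12 distal places, 3 of these at Tnfrsf1b and none at Il1r1, Tnfrsf1a, Tlr4 or Csf2rb.

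Aged and young lists were compared next, the question of the study's design. The number of members with a called promoter was 10, 10 and 10 in the aged lists and 10, 9 and 10 in the young lists (exact 2-sided permutation p = 1; with 3 lists against 3 the smallest possible p is 0.1). No member region was found in every aged list and in no young list, where 0.0502% of all regions were (0.0558% of those within 25 kb of protein-coding genes). None was found in every young and no aged list either, where 0.0608% were (0.0709%). At those shares fewer than 1 of 344 regions would have the pattern in each direction, so a count of 0 does not set the members apart. Regions called in more young than aged lists numbered 173 (50.3%), and in more aged than young lists 114 (33.1%), against 51.6% and 39.2% of all regions within 25 kb of protein-coding genes.

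The member loci held 113, 92 and 75 called regions in the aged lists and 134, 109 and 95 in the young lists. The means were 93.3 ± 19.04 (SD, n = 3) and 112.7 ± 19.8, a difference of -19.3 (exact 2-sided permutation p = 0.4), and the ages overlapped. Between lists that share an exp number the difference was -21, -17 and -20, lower in the aged list in 3 of 3. As a share of each list's peaks, which takes the length of the list into account, the aged lists had 0.0486%, 0.0728% and 0.0593% and the young lists 0.0511%, 0.0451% and 0.0877%. The 95% Wilson intervals, which cover counting error only, ran from 0.0406% to 0.0582% in aged replicate 1 and from 0.0595% to 0.0891% in aged replicate 2. In young replicates 2 and 3 they ran from 0.0376% to 0.0542% and from 0.0719% to 0.107%, so lists of a single age differed by more than counting error. The mean shares were 0.0602% ± 0.0121 and 0.0613% ± 0.0230 (exact 2-sided permutation p = 0.9). When all lists were shortened to the same number of peaks, the difference in called regions went from -19.3 to 0.333, and between lists of one exp number it was 8, 32 and -39.

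Il1r1 was the one member whose counts did not overlap between ages. Its locus held 13, 10 and 9 called regions in the aged lists and 23, 19 and 18 in the young lists (10.7 ± 2.08 against 20 ± 2.65, SD, n = 3; exact 2-sided permutation p = 0.1, the smallest possible). Every aged list lay below every young list, as was the case for 1.73% of all protein-coding genes, and 0.356% had the reverse. Of the 62 Il1r1 regions, 49 were called in 1 list only. Counting only regions that another list also called, the values were 6, 6 and 5 against 9, 7 and 10, without overlap. These counts are not corrected for list length, and the share of all genes with this pattern among shared regions was not computed. Per 100000 peaks the values were 5.31, 7.74 and 6.93 against 8.71, 7.45 and 16.3, and the ages overlapped. They overlapped also at equal list length (8, 7 and 7 against 10, 4 and 18) and when only peaks at a q-value of 0.05 were kept (6, 5 and 2 against 8, 3 and 8).

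Among the Il1r1 regions were 2 inside the gene, on either side of the downstream start, that 3 young lists but 1 aged list called. The region 38.2 kb from the upstream start (chr1:40262963-40263667) lay at 78.9 in aged replicate 2 and at 89.6, 42.7 and 72.1 in the young lists. The region 46.2 kb from it (chr1:40270881-40271670) lay at 90.0 in aged replicate 2 and at 94.5, 73.1 and 84.5 in the young lists. Both were picked after their values were seen, and both were called in aged replicate 2, so neither was particular to the young samples. They were the 2 member regions with this pattern, which 0.152% of all regions within 25 kb of protein-coding genes had. The opposite pattern, 3 aged lists and 1 young list, was also held by 2 member regions, and by 0.158% of those near all protein-coding genes. One lay past Ifnar1 (chr16:91522537-91522784), at 91.0, 66.5 and 20.01 in the aged lists and at 79.0 in young replicate 3. The other lay past the far end of Il6ra (chr3:89861118-89861516), at 92.7, 87.4 and 1.6 in the aged lists and at 84.9 in young replicate 3.

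Tlr4 showed a like pattern once list length was taken into account. Its locus held 3, 2 and 1 called regions in the aged lists and 10, 8 and 3 in the young lists, which overlapped at 3 (exact 2-sided permutation p = 0.2). Per 100000 peaks the values were 1.23, 1.55 and 0.77 against 3.79, 3.14 and 2.71, without overlap (exact 2-sided permutation p = 0.1). Of all protein-coding genes, 2.87% had fewer regions per 100000 peaks in every aged list, and 3.23% had more. Of its 20 regions 18 were called in a single list, and with only those shared by another list the counts were 1, 2 and 1 against 2, 1 and 2, which overlapped. When only peaks at a q-value of 0.05 were kept the counts were 2, 2 and 1 against 2, 3 and 2, which overlapped. Per 100000 such peaks they were 2.13, 2.27 and 2.04 against 3.79, 2.78 and 2.58, which did not (exact 2-sided permutation p = 0.1). At equal list length the counts were 2, 2 and 1 against 3, 3 and 3, without overlap. In the gene body alone, the values per 100000 peaks were 0.409, 1.55 and 0.770 against 1.52, 1.57 and 1.81, which overlapped. The share of all genes without overlap was not computed in these alternative settings, so the separation in some of them cannot be judged. All these values rest on 1 to 10 regions per list.

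The other 8 loci overlapped between ages on both scales. Their counts were 15, 12, 9, 19, 12 and 11 at Il6ra, 12, 8, 5, 12, 9 and 6 at Ifnar1, and 16, 11, 7, 13, 13 and 11 at Ifnar2. At Ifngr1 they were 9, 5, 9, 9, 5 and 6. Among the tumour necrosis factor receptors, Tnfrsf1a had 10, 12, 17, 14, 7 and 11, and Tnfrsf1b had 14, 19, 13, 12, 17 and 18. Tlr2 had 8, 6, 4, 9, 12 and 5. Csf2rb had 13, 7, 1, 13, 7 and 6, and its single region in aged replicate 3 was the promoter.

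**Figure D3:**
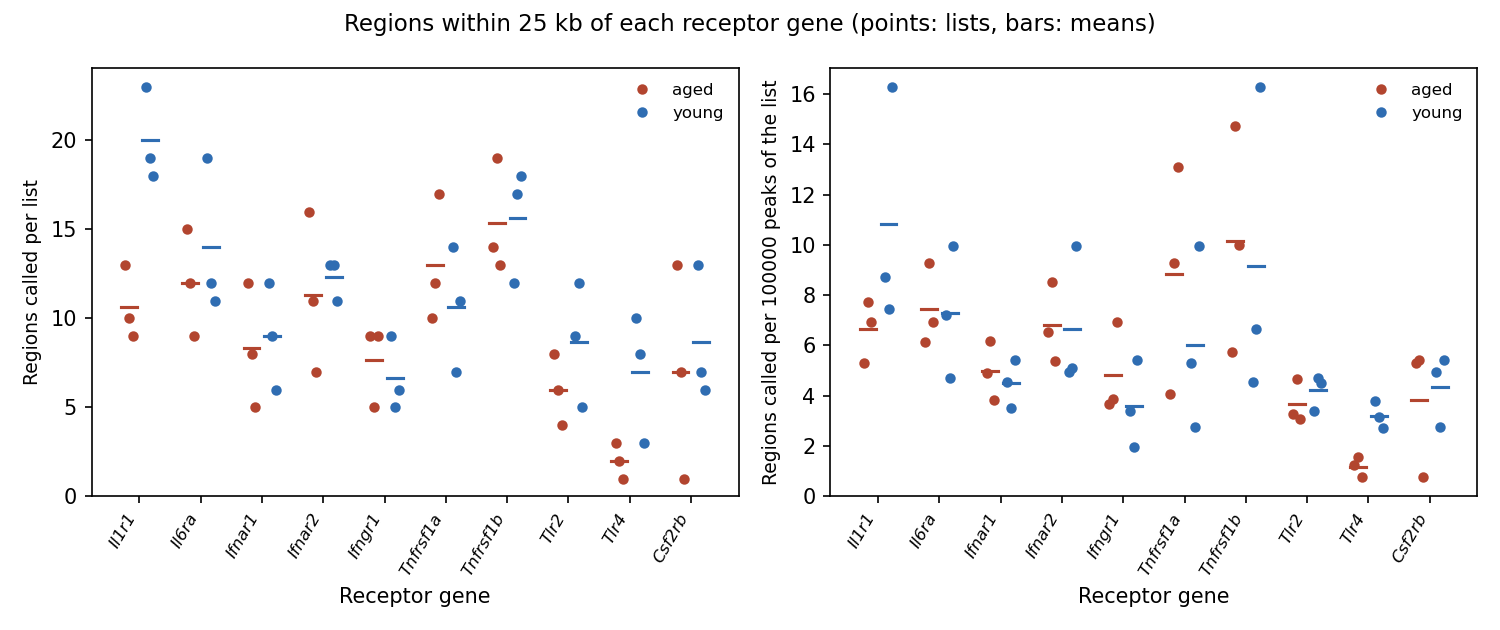
Called regions at each member locus as a count per list (left) and per 100000 peaks of the list (right), with 1 point per list, red for aged and blue for young, and a short bar at the mean of each age. On the left the aged points of Il1r1 (9 to 13) all lie below its young points (18 to 23), and on the right those of Tlr4 (0.77 to 1.55) lie below its young points (2.71 to 3.79); elsewhere the ages overlap or touch.

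A few regions, chosen after their values were seen, were called in at least 2 lists of one age and none of the other. There were 5 on the aged side and 4 on the young side among the 344. The same held for 1.59% (aged) and 2.05% (young) of all regions, and for 1.69% and 2.14% of those within 25 kb of protein-coding genes. On the aged side, the strongest were a region 13.3 kb past the Tlr2 start (chr3:83828184-83828491), at 91.9 and 85.2 in aged replicates 1 and 2, and one 4.0 kb before Tnfrsf1a at an end of Scnn1a (chr6:125345633-125345849), at 80.8 and 83.1. On the young side, a region inside Il1r1 (chr1:40294878-40295101) lay at 88.8 and 51.0 in young replicates 2 and 3.

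The signalling partners of these receptors differed by role. Of 59 partner genes, 24 had an open promoter in every list and 37 in 5 or more, against 35% and 50.4% of all protein-coding genes. Adaptors, kinases and signal carriers stood highest, with 16 of 23 called in every list and 22 of 23 in 5 or more. Among them Myd88, the adaptor of the Toll-like and interleukin-1 receptors, lay at percentiles from 97.95 to 99.98 over the 6 lists. Stat3, a carrier of the interleukin-6 signal, lay from 99.1 to 99.9. Both were chosen after their values were seen, and others of this role reached far lower. In young replicate 2 Stat2 lay at 1.97, Tyk2 at 55.6 and Rela at 61.5, and in aged replicate 3 Rela lay at 75.8. Of 19 co-receptors and other receptors 5 were called in all 6 lists: Il1rap and Il6st, the second chains for Il1r1 and Il6ra, as well as Ifngr2, Csf2ra and Il3ra. Of 8 decoys and inhibitors 3 were (Socs1, Tnfaip3 and Tollip). Of 9 ligands none was, and Il6 and Csf2 reached 5 lists.

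Calls at the partner promoters overlapped between ages. The number with a called promoter was 48, 47 and 38 in the aged lists and 47, 37 and 43 in the young lists (44.3 ± 5.51 against 42.3 ± 5.03, SD, n = 3; exact 2-sided permutation p = 0.6). None was called in all 3 lists of one age and none of the other, a pattern seen in 0.148% (aged) and 0.231% (young) of all protein-coding genes. The largest differences were of 2 lists. Ifnb1, the interferon-beta gene, was called in the 3 aged lists (12.9, 47.8 and 75.8) and in young replicate 1 (24.3). Tlr3, a sensor of double-stranded RNA, was called in the 3 aged lists (71.6, 78.7 and 92.8) and in young replicate 3 (70.4). Tlr5, the flagellin receptor, was called weakly in aged replicates 1 and 3 (25.3 and 1.07) and in no young list. Cd14, which hands lipopolysaccharide to Tlr4, and Tradd, an adaptor of Tnfrsf1a, were called in 1 aged and 3 young lists. Il1b and Tlr7 were called in no list.

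**Figure D4:**
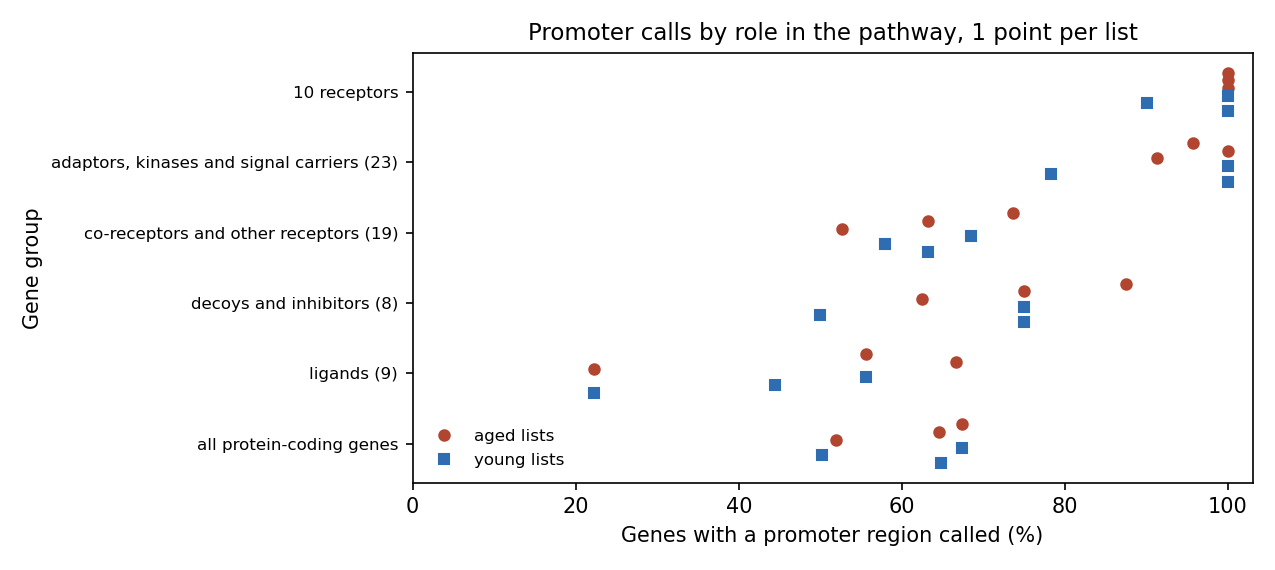
Percent of the genes of each role with a called promoter region (horizontal axis), with 1 point per list, circles for aged and squares for young lists. The 10 receptors are called in 9 or 10 cases and the 23 adaptors, kinases and signal carriers in 18 to 23, while the 9 ligands are called in 2 to 6 and all protein-coding genes in 50.2% to 67.4%.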

How the data were processed

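ATAC-seq peak lists of 3 aged and 3 young samples were used, 1 list per sample, grouped by sample title. Per the submitters' processing notes the build was mm10 and the tools were Bowtie2, SAMtools, Picard and MACS2; versions, parameters, roles and any transposase shift are not given in the sources used here. The lists have no header. Each deposited peak carries a score, a fold enrichment over background (a ratio), a −log10 p-value, a −log10 q-value and a summit position, in the MACS2 layout; these are the authors' values. Peaks were called per sample.

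Peaks with the same interval were counted once, and chromosomes 1 to 19 and X were used. Regions, promoters and percentiles (ties averaged) are defined in the text; gene positions are from RefSeq tables on GRCm38.p6. The text names every member with its promoter and its region of highest mean percentile (uncalled lists counted as 0), partners with the largest age difference, and partners called in no list; other regions are named by their number of lists, or as chosen after their values were seen. Values per list were tested by exact 2-sided permutation over the 6 lists. Members, gene lists and motifs were chosen with earlier results of these data known. Alternatives were a q-value limit, equal list length, other windows, overlaps and peak sets, a replicate block, and leaving out each list. Region calling was tested on simulated lists. Python 3.11.15, numpy 2.4.6, pandas 2.3.3, scipy 1.17.1 and matplotlib 3.10.9 were used.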

Additional observations from a re-analysis of the deposited data

How the results depend on the processing

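Of the age differences and counts recomputed, those not named here kept their direction and their side of the 0.05 threshold. With equal list length the difference in called regions per list (aged minus young) was 0.333 and that in the share of peaks 0.00181 percentage points, both reversed in sign; the share was also reversed with a window of 10 kb (0.00103). The cause was not tested. Leaving out 1 list at a time gave -29.2 to -8.67 for called regions, -0.0092 to 0.0121 for the share (reversed without aged replicate 1 or young replicate 3), 0 to 0.5 for members with a called promoter (0 without young replicate 2), and -0.667 to 5.17 for partners (reversed without young replicate 2). Member regions called at one age alone then numbered 0 to 4 (aged) and 0 to 2 (young), as fewer lists are needed. The 4 on the aged side, without aged replicate 3, were 1.27% of member regions, against 0.862% of all regions. The 2 on the young side were 0.730% against 0.501% without young replicate 1, and 0.613% against 0.158% without aged replicate 2. Regions called in all 6 lists numbered 21, which was 6.1% of member regions against 1.09% of all regions. With peaks at a q-value of 0.05 they numbered 11 (7.33% against 1.91%). If a call had to cover 50% of the region they numbered 6 (1.74% against 0.19%). In gene bodies alone they numbered 12 (8.89%, against 1.09% of all regions, in gene bodies or not). With 1 list left out they numbered 21 to 27. The count fell in some settings, but each member share given here lay above that of all regions. These shares were not tested. For Il1r1 and Tlr4, alternatives chosen after seeing the data, leaving out 1 list gave -10.5 to -7.83 and -7 to -3.5 regions. Replicate numbers, which go with the unexplained exp numbers of the titles, did not meet the check used for pairing (a correlation over 0.1 in every pair). Same-numbered lists correlated at -0.0243, -0.0186 and -0.0904. No aged and young pair of any number reached that limit (highest 0.0880, aged replicate 1 with young replicate 3). Most regions were called in 1 list only, so the check cannot decide whether the samples are paired. A replicate block left the difference of -19.3 regions at an exact sign-flip p of 0.25, the smallest possible with 3 pairs, and gave exact p of 0.75 for the share, 1 for members and 0.75 for partners; it changed no call. Unknown read depth limits all calls.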
